A study of Mus musculus with 23 samples.

Results

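The 6 AP-1 genes Fos, Fosb, Fosl2, Jun, Junb and Atf3 were followed in mouse nucleus accumbens 1 hour after a single injection of methamphetamine or saline. Members were all probe sets that the platform annotation assigns to one of these genes alone, which gave 10 of the 12488 probe sets on the array. Fos had 2 of them, Fosb 1, Fosl2 1, Jun 1, Junb 2 and Atf3 3. The study compared mice from lines selectively bred for a high (HMACT) or a low (LMACT) acute response to methamphetamine, with both lines derived from C57BL/6J x DBA/2J stock. Each of the 23 samples was 4-way pooled accumbens tissue hybridised to 1 array. There were 6 pools of HMACT mice given 2 mg/kg methamphetamine (mean age of a pool 77.25 to 150 days, median 114.75) and 6 pools of HMACT mice given saline, a dose of 0 mg/kg (77.25 to 154 days, median 112). There were 5 pools of LMACT mice given 2 mg/kg methamphetamine (60 to 114.75 days, median 68.75) and 6 pools of LMACT mice given saline (61.5 to 127.5 days, median 67.1). Age and line were thus partly confounded, and how many mice entered a pool beyond the 4-way description is not given in the sources used here.

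AP-1 is a family of paired transcription factors. Proteins of the Fos group (Fos, Fosb, Fosl2) bind DNA as dimers with proteins of the Jun group (Jun, Junb), and Atf3 belongs to the related ATF group, which can also pair with Jun proteins. Fos, Fosb, Jun, Junb and Atf3 are immediate early genes, transcribed within minutes of stimulation without new protein synthesis. In the striatum psychostimulants are classic inducers of Fos through dopamine receptors and the kinase and CREB pathways below them.

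The sequences before the transcription starts of the members are shown because those pathways act there. Windows of 250 bases before the RefSeq start (GRCm38.p6) were searched on both strands for TGACG, the core of the element that CREB and ATF factors bind, for 2 of its variants, TGACATCA and TTACGTCA, for its full form TGACGTCA, for the AP-1 site TGANTCA, for the CArG box bound by serum response factor and for TATAAA. All 6 members had a window. Capitals mark TGACG, TGACATCA or TTACGTCA, and each line reads 5′ to 3′ on the strand of the gene. The full window is given for Fos (chr12:85473640-85473889, plus strand) and 60 bases for Fosb (chr7:19310074-19310133), Jun (chr4:95052234-95052293), Junb (chr8:84978823-84978882) and Atf3 (chr1:191183334-191183393), all on the minus strand.
Fos: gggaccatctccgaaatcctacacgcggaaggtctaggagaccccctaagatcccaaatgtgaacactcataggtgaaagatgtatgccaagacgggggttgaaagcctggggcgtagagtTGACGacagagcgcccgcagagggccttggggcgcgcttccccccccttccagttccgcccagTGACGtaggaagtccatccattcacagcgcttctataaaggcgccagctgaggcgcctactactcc
Fosb: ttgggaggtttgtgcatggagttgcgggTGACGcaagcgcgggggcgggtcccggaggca
Jun: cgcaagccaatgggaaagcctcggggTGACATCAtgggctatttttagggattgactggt
Junb: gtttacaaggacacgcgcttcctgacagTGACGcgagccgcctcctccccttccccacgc
Atf3: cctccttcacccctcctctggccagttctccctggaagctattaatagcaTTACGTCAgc
Fos held TGACG with its first base 129 and 66 bases before the start, Fosb 60 bases before and Junb 106 bases before. In Atf3 the TTACGTCA that began 10 bases before the start also held a TGACG, on the opposite strand, so that 4 of the 6 members carried the core. The core occurred in 17.8% of the 32851 RefSeq promoter windows, TGACATCA (in Jun, 45 bases before the start) in 2.93% and TTACGTCA in 0.448%. TATAAA stood 33 bases before the start of Fos and was found in 12.4% of windows. TGACGTCA (1.55% of windows), TGANTCA (6.75%) and the CArG box (1.47%) were found in 0 of the 6 members. These are matches of letters within these windows and not measured binding. Bases farther from the start were not searched, so a count of 0 does not show that a gene lacks the element.

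The deposited table holds 1 value per probe set and array, read here as log2 expression and running from 2.23 to 16.4. Of all values, 44.2% lay under 2.3, a floor at which a transcript is not measured. Of the 12422 probe sets that are not controls, 2500 (20.1%) repeated 1 value above that floor on 3 or more arrays. A value above 2.3 thus does not by itself show that a transcript was measured. Of the 10 member probe sets, 7 lay above the floor on at least 12 arrays: 160901_at (Fos), 103990_at (Fosb), 100130_at (Jun), 102363_r_at and 102362_i_at (Junb), and 104155_f_at and 104156_r_at (Atf3). A further Fos probe set, 161716_at, and a further Atf3 probe set, 161645_r_at, were at the floor on every array. The Fosl2 probe set 103546_at was above it on 1 array, at 2.47 in the HMACT saline group, so Fosl2, a slower member of the Fos group, was not measured here. The brightest probe set carries each gene below.

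Along the main axis of variation within groups, which took 60.6% of the residual variance of 6831 probe sets above the floor, 4 arrays stood apart, with scores of 28.2 to 64.5 against -39.7 to 20.1 for the 19 others. They were HMACT methamphetamine replicate 3, HMACT saline replicates 3 and 5, and LMACT methamphetamine replicate 4. These arrays were picked from these same data without a set cut-off. HMACT saline replicate 5, at 28.2, lay near HMACT methamphetamine replicate 2, which was kept at 20.1. The 5 of 9 striatal projection neuron markers on the array were above the floor on all 23 arrays. Their means were 5.96 for Drd2, 7.62 for Pdyn, 9.91 for Tac1, 10.82 for Gad1 and 14.28 for Penk. Of 4 cortical excitatory neuron markers 2 were on the array: Tbr1, above the floor on all 23 arrays (mean 9.32), and Neurod6, above it on 1. In each marker list 0 genes were called between groups, where 0% to 0.137% of all probe sets were called in the 7 comparisons. At such shares, 0 in lists of this length is not a result about cell types. HMACT saline replicate 3 had the smallest difference between the 3′ and 5′ control probe sets, a sign of RNA integrity and labelling length, at 1.07 log2 units, and the highest mean of the 7 microglia markers, 7.90. LMACT methamphetamine replicate 5 had the largest control difference, 4.57, with 2.80 as the next; without this array the LMACT methamphetamine minus saline difference was 0.41 for Fos, 0.50 for Fosb, 0.48 for Junb and 0.84 for Atf3. The microglia marker mean ran from 5.81 to 7.13 in HMACT after methamphetamine and from 5.87 to 7.90 in HMACT after saline. In LMACT it ran from 6.01 to 6.79 after methamphetamine and from 5.93 to 6.31 after saline. Cx3cr1, a defining microglia marker, was at the floor on every array. In these bulk samples, fewer cells of a type and less RNA per cell cannot be told apart.

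After methamphetamine, Atf3, Fos, Fosb and Junb had higher mean levels than after saline in both lines, and Jun did not. Averaged over the lines, the difference was 0.95 log2 units for Atf3, 0.79 for Fosb, 0.67 for Fos and 0.39 for Junb, against -0.00102 for Jun. None of the 10 member probe sets passed an adjusted p of 0.05 in limma over the 12422 probe sets fitted, in any of the 7 comparisons made. In the average of the lines 0.0161% of all probe sets passed, in HMACT 0.00805% and in LMACT 0%. At an unadjusted p under 0.05, 4 of the 10 member probe sets were higher after methamphetamine, where 0.700% of all probe sets were. In HMACT mice 3 of 10 were (Fos, Fosb and Atf3), against 0.459% of all, and in LMACT mice 2 of 10 (Junb and Atf3), against 2.00% of all.

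**Figure D1:**
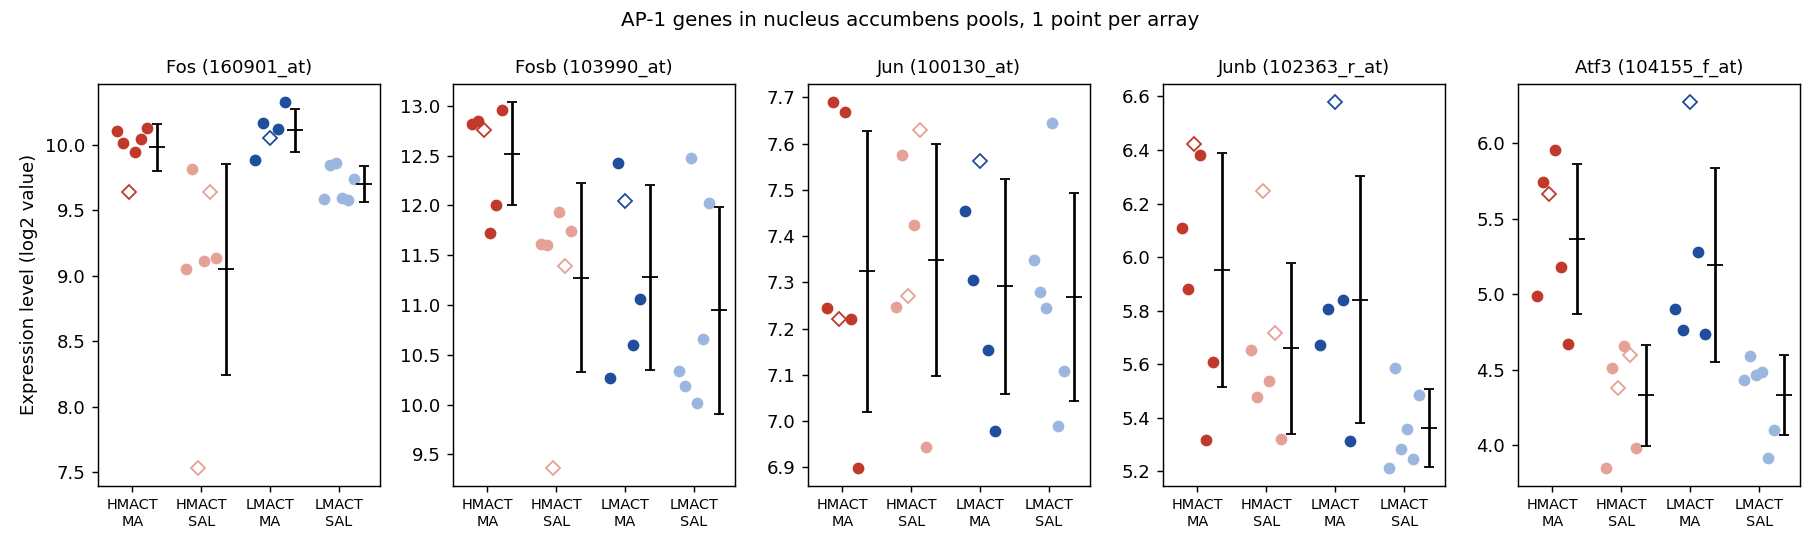
Expression level (log2 value, vertical axis, a separate scale for each gene) of the brightest probe set of 5 AP-1 genes in each of the 23 pools, by line and injection (MA, methamphetamine; SAL, saline). Points are arrays, open diamonds the 4 arrays that stood apart, and bars the mean and SD; for Atf3 every methamphetamine array lies above every saline array of its line, while for Jun the 4 groups cover the same range.

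Fos encodes the namesake partner of the Jun proteins and is the common marker of recently active neurons. Its log2 level ran from 9.64 to 10.13 (median 10.03) in HMACT mice after methamphetamine, and from 7.53 to 9.82 (median 9.12) in HMACT mice after saline. In LMACT mice it was 9.88, 10.17, 10.06, 10.12 and 10.33 after methamphetamine, and ran from 9.58 to 9.87 (median 9.67) after saline. The LMACT groups did not overlap, as 0.330% of all probe sets did not with the methamphetamine group higher, and in HMACT 5 of the 6 methamphetamine arrays lay above the highest saline array. All 11 methamphetamine arrays exceeded the saline mean of their own line.

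Fos differed between methamphetamine and saline by 0.93 log2 units in HMACT (SE 0.249, 1.91-fold, limma adjusted p = 1, unadjusted p = 0.00133) and by 0.41 in LMACT (SE 0.261, 1.33-fold, adjusted p = 1, unadjusted p = 0.133). The average of the lines was 0.67 (SE 0.180, 95% interval 0.29 to 1.05, 1.59-fold). That average had an unadjusted p of 0.00141, the 12th smallest of 12422, and a limma adjusted p of 1. HMACT saline replicate 3, at 7.53, was the lowest of all 23 arrays and is the array with the smallest 3′ to 5′ difference and the highest microglia marker level; without it the HMACT difference was 0.63 and the average 0.52. Without all 4 arrays that stood apart, the average was 0.60 and passed the test in limma (adjusted p = 0.0385). Those arrays were picked from the same data and include HMACT saline replicate 3, so this pass is not separate support.

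The spread of Fos was uneven between groups. The SD was 0.180 around a mean of 9.98 in HMACT after methamphetamine and 0.805 around 9.05 in HMACT after saline. In LMACT it was 0.163 around 10.11 after methamphetamine and 0.135 around 9.70 after saline. The order of the means was therefore LMACT methamphetamine, HMACT methamphetamine, LMACT saline and HMACT saline. The first 2 steps, 0.13 and 0.28, were smaller than the pooled SD of 0.435, and the last, 0.65, was larger. Here and for Fosb and Jun below, that SD describes single arrays and is no test of the means. The SE of a difference between group means was smaller, 0.249 to 0.261 for Fos.

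Fosb encodes a further Fos-group partner, whose truncated product accumulates in the accumbens over repeated drug exposure; the files do not separate its transcripts. Its log2 level ran from 11.73 to 12.96 (median 12.79) in HMACT after methamphetamine, and from 9.37 to 11.93 (median 11.61) in HMACT after saline. In LMACT it was 10.26, 12.43, 12.04, 10.60 and 11.06 after methamphetamine, and ran from 10.01 to 12.47 (median 10.50) after saline. In HMACT 5 of 6 methamphetamine arrays lay above every saline array, whereas in LMACT 0 of 5 did. In LMACT, values near 10 and values near 12 both occurred after each injection: the saline replicates 3 and 6 stood at 12.47 and 12.03 and the other saline arrays at 10.01 to 10.66. The HMACT methamphetamine mean, 12.52 (SD 0.519), stood 1.24 above the next, which is larger than the pooled SD of 0.880. The LMACT methamphetamine, HMACT saline and LMACT saline means, 11.28, 11.27 and 10.95, lay closer together than that SD.

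The Fosb difference was 1.25 log2 units in HMACT (SE 0.503, 2.37-fold), with a limma adjusted p of 1 and an unadjusted p of 0.0227. By size it ranked 2 among the positive differences of the 12422 probe sets in that line. In LMACT the difference was 0.33 (SE 0.528, 95% interval -0.77 to 1.43), with an adjusted p of 1 in limma. The LMACT value was 0.04 without methamphetamine replicate 3 and 0.63 without saline replicate 3. The HMACT value was 0.86 without saline replicate 3, and without the 4 arrays that stood apart it was 0.75. Among pools under 100 days of mean age the HMACT value was 0.54 (unadjusted p = 0.454 in limma), and in the largest chip lot it was 1.77. The HMACT pools under 100 days were replicates 4 to 6, 3 arrays after each injection.

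Jun encodes the main dimer partner of Fos and is also expressed at rest in many cells. Its log2 level ran from 6.90 to 7.69 (median 7.23) in HMACT after methamphetamine and from 6.94 to 7.63 (median 7.35) in HMACT after saline. In LMACT it was 7.45, 7.31, 7.56, 7.15 and 6.98 after methamphetamine and ran from 6.99 to 7.64 (median 7.26) after saline. The 4 groups covered the same range, their means differed by less than the pooled SD of 0.256, and 5 of 11 methamphetamine arrays exceeded the saline mean of their line. The average difference of -0.00102 (SE 0.106) had a 95% interval of -0.22 to 0.22, and its sign changed under several other settings.

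Junb encodes a Jun-group protein that is a weaker activator than Jun. At 102363_r_at its log2 level ran from 5.32 to 6.42 (median 5.99) in HMACT after methamphetamine and from 5.32 to 6.25 (median 5.60) in HMACT after saline. In LMACT it was 5.67, 5.81, 6.58, 5.84 and 5.31 after methamphetamine and ran from 5.21 to 5.59 (median 5.32) after saline. In LMACT 4 of 5 methamphetamine arrays lay above every saline array, and in HMACT 2 of 6 did. The average difference was 0.39 (SE 0.148, 1.31-fold, limma adjusted p = 1, unadjusted p = 0.0171), with 0.29 in HMACT and 0.48 in LMACT. The LMACT value was 0.30 without methamphetamine replicate 4, one of the arrays that stood apart.

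The second Junb probe set, 102362_i_at, gave the same value of 4.75 on 10 arrays and could not rank them. It read 7.41 in HMACT methamphetamine replicate 3, 8.40 in HMACT saline replicate 3 and 6.11 in LMACT methamphetamine replicate 4, and at most 5.21 elsewhere. These 3 high arrays were among the 4 that stood apart. Its average difference was 0.34 (SE 0.430, unadjusted p = 0.439, limma adjusted p = 1).

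Atf3 encodes a stress- and injury-inducible factor that can repress transcription and pair with Jun proteins. At 104155_f_at, a probe set whose suffix marks probes shared with related sequences, its log2 level ran from 4.67 to 5.96 (median 5.42) in HMACT after methamphetamine and from 3.85 to 4.66 (median 4.45) in HMACT after saline. In LMACT it was 4.90, 4.77, 6.27, 5.28 and 4.74 after methamphetamine and ran from 3.91 to 4.59 (median 4.45) after saline. Every methamphetamine array lay above every saline array of its own line, with 4.67 and 4.66 as the closest pair, in HMACT. Of all probe sets, 0.0403% showed this in HMACT and 0.0242% in both lines, these being 104155_f_at and those of Btg2 and Klf4.

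The means were 5.37 (SD 0.499) in HMACT and 5.19 (SD 0.642) in LMACT after methamphetamine, and 4.33 in each line after saline, with a pooled SD of 0.447. The average Atf3 difference was 0.95 log2 units (SE 0.185, 95% interval 0.56 to 1.34, 1.93-fold), with a limma adjusted p of 0.182. Its unadjusted p of 5.85e-05 was the fourth smallest of the 12422. The line values were close, 1.04 in HMACT (SE 0.256, unadjusted p = 6.69e-04) and 0.86 in LMACT (SE 0.268, unadjusted p = 0.00456), both with an adjusted p of 1 in limma. Without LMACT methamphetamine replicate 4, at 6.27, the LMACT value was 0.59. The dimmer probe set 104156_r_at ran from 3.02 to 3.53 in HMACT after methamphetamine and from 3.03 to 3.82 in HMACT after saline, and from 3.15 to 3.50 in LMACT after methamphetamine and from 2.91 to 3.15 in LMACT after saline. It gave the same value of 3.15 on 10 arrays and could not rank them, and its average difference was 0.09 (SE 0.0829, unadjusted p = 0.271).

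**Figure D2:**
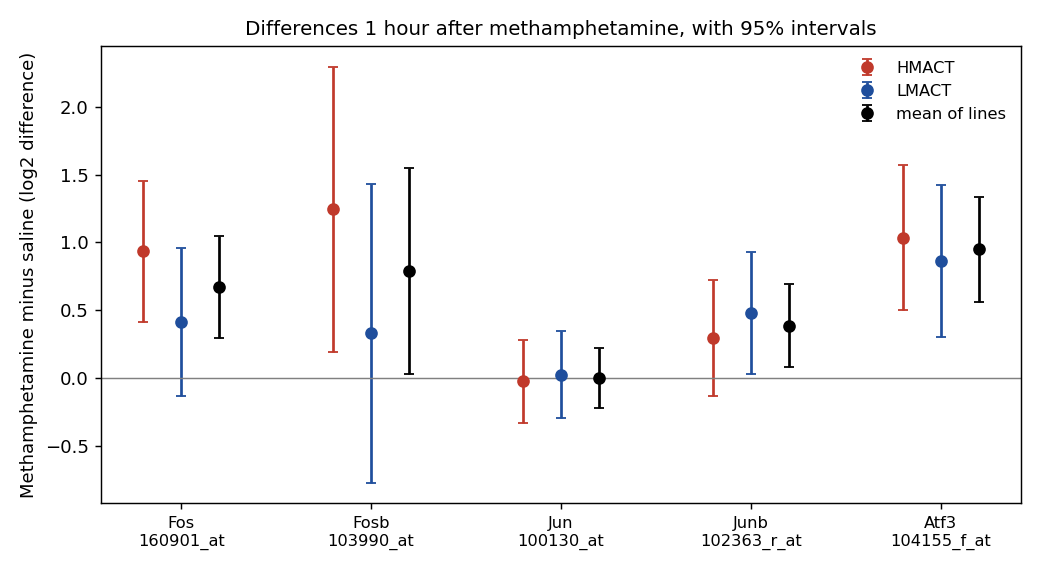
Methamphetamine minus saline (vertical axis, log2 difference from limma) for 5 AP-1 genes in HMACT mice, in LMACT mice and averaged over the lines; bars are 95% intervals. The intervals of the average lie above 0 for Fos, Fosb, Junb and Atf3 before adjustment for the number of probe sets, and the interval for Jun spans 0.

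The arrays came from several chip lots, and the largest lot held 4, 4, 3 and 4 arrays of the HMACT methamphetamine, HMACT saline, LMACT methamphetamine and LMACT saline groups. Within that lot the methamphetamine minus saline difference for Fos was 1.09 in HMACT and 0.52 in LMACT. For Atf3 it was 1.08 in HMACT and 0.70 in LMACT, and for Junb 0.33 in HMACT and 0.35 in LMACT. Fosb stood at 1.77 in HMACT and -0.01 in LMACT. In a second lot, with 1 pair of arrays a line, Fos differed by 0.83 in HMACT and 0.03 in LMACT and Atf3 by 1.30 in HMACT and 0.31 in LMACT. There Junb differed by 0.84 in HMACT and 0.08 in LMACT, and Fosb by -0.21 in HMACT and 0.08 in LMACT. In a further lot, which held 1 pair of HMACT arrays, the difference was 0.40 for Fos, 0.62 for Fosb, -0.40 for Junb and 0.58 for Atf3. The signs for Fosb and Junb thus varied between lots, while Fos and Atf3 were positive in each lot and line that held both injections. That lot held no LMACT pair, since LMACT methamphetamine replicate 4 carried a lot number of its own; against saline replicate 4 it differed by 0.46 for Fos, 2.03 for Fosb, 1.22 for Junb and 1.79 for Atf3.

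Whether the lines responded differently was tested by the interaction, the HMACT difference minus the LMACT difference. It was 0.52 for Fos (SE 0.361, 95% interval -0.23 to 1.28, limma adjusted p = 0.884) and 0.92 for Fosb (SE 0.729, 95% interval -0.61 to 2.44, adjusted p = 0.884). It was -0.19 for Junb (SE 0.296, adjusted p = 0.952) and 0.17 for Atf3 (SE 0.371, adjusted p = 1). The intervals include 0 and differences as large as the responses themselves. At the adjusted threshold 0% of all probe sets were called. Without HMACT saline replicate 3, the interaction was 0.22 for Fos and 0.54 for Fosb. The Fosb interaction was -0.0552 among pools under 100 days and 1.78 in the largest lot, and the Atf3 interaction was -0.0719 among pools under 100 days. Those pools were 3 HMACT methamphetamine, 3 HMACT saline, 4 LMACT methamphetamine and 5 LMACT saline arrays.

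Between the lines, Fos was lower and Fosb higher in HMACT, and neither passed the adjusted test. After saline the HMACT minus LMACT difference for Fos was -0.65 (SE 0.249, limma adjusted p = 0.390, unadjusted p = 0.0165); 6.87% of all probe sets were lower in HMACT at an unadjusted p under 0.05, and 0.00805% passed the adjusted test. It was -0.35 without HMACT saline replicate 3 and -0.53 with mean age as a term in the fit. After methamphetamine the Fos difference was -0.13 (SE 0.261), and it was 0.00110 with mean age as a term.

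Fosb after methamphetamine was 1.24 higher in HMACT than in LMACT (SE 0.528, 95% interval 0.14 to 2.35, limma adjusted p = 1, unadjusted p = 0.0293); 1.42% of all probe sets were higher in HMACT at an unadjusted p under 0.05, and 0% passed the adjusted test. After saline the Fosb difference was 0.33 (SE 0.503, adjusted p = 0.932 in limma), with 0.71 without HMACT saline replicate 3 and -0.29 within the largest lot. The line averages over both injections were -0.39 for Fos (adjusted p = 0.453) and 0.78 for Fosb (adjusted p = 0.456), where 0.137% of all probe sets passed in limma. Jun, Junb and Atf3 had means within 0.30 of each other between the lines after saline, Junb being 5.66 in HMACT and 5.36 in LMACT.

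The members did not move as one block across arrays. Over the 23 arrays Junb and Atf3 had the highest Pearson correlation, 0.717, which was 0.689 over the 19 arrays without those that stood apart. Fos and Atf3 had 0.422 over 23 arrays and 0.602 over 19, Fos and Fosb 0.459 and 0.192, and Jun and Atf3 0.467 and 0.516. These arrays share group, lot and the axis above, whose score had an r of 0.615 with Junb, 0.424 with Atf3, 0.396 with Jun, -0.267 with Fos and -0.0632 with Fosb. The 3′ to 5′ control difference had an r of 0.506 with Fos, which rested on HMACT saline replicate 3. It was 0.167 without that array, 0.618 without LMACT methamphetamine replicate 5 and -0.0446 without both. The part of the control difference and of the microglia markers in the results was not tested.

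**Figure D3:**
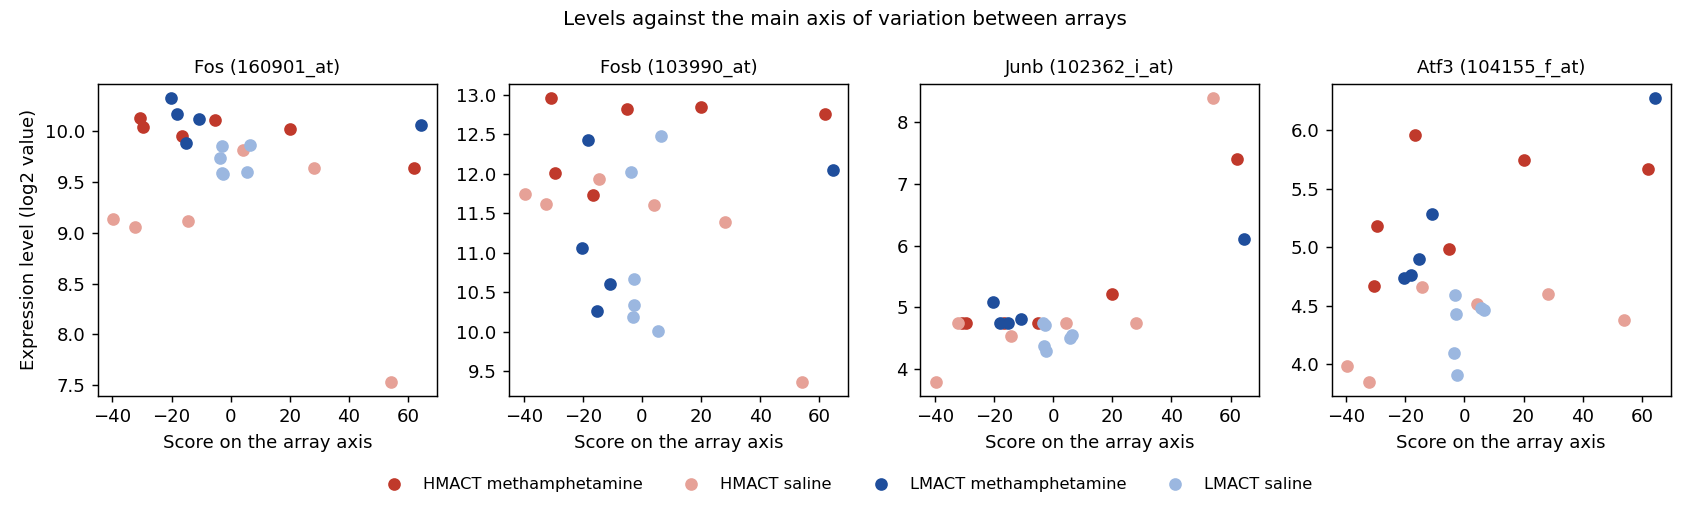
Expression level (log2 value, vertical axis) of Fos, Fosb, the second Junb probe set and Atf3 against the score of each array on the main axis of variation within groups (horizontal axis, no unit); each point is 1 of 23 arrays. The HMACT saline array at 7.53 for Fos and 9.37 for Fosb lies at a high score, and 102362_i_at reaches 6.11 to 8.40 on 3 arrays with high scores.

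The genes whose levels were most like each member, by Pearson correlation over the 23 arrays among 5303 genes that were not members, differed between members. For Fos they were Klf4 (0.878), Mthfd2 (0.871) and Egr2 (0.854), the first and last being immediate early transcription factors. Without the 4 arrays they had 0.787, 0.565 and 0.793. For Fosb they were Osbpl5 (0.847), Frat2 (0.834) and Bnip3 (0.809). Atf3 was most like Cebpd (0.821), Frat1 (0.750) and Nfkbia (0.739), Junb most like Pim3 (0.780), 5031439G07Rik (0.780) and Tcf25 (0.771), and Jun most like Smap2 (0.718), Cops8 (0.712) and Crip2 (0.709). Pim3 had 0.523 with Junb without the 4 arrays.

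Among the other genes of the pathway, the partners, upstream factors and known targets of AP-1 showed 0 calls and 0 unadjusted p under 0.05 in the average of the lines. Of all probe sets 0.0161% passed the adjusted test and 0.700% were higher at that unadjusted p. At such shares, 0 in lists of this length is not a result about these genes. For the 6 members together, counting Fosl2, 4 differences were positive and 2 negative, with a median of 0.53. The median was -0.00298 over 6162 genes above the floor on at least 1 array, of which 48.3% were positive. Of 14 other AP-1 and partner genes on the array, 10 were above the floor on at least 1 array, 4 positive and 6 negative, with a median of -0.03. Of these 10, Fosl1 and Mafk were above it on 1 array only, so that they, like Fosl2, were not measured here. Nfe2l1 (0.43, SE 0.310) and Mafk (0.06, SE 0.0505) had the smallest p in the list, 0.179 and 0.254 unadjusted, and Jund, an abundant Jun-group gene, stood at -0.11 (SE 0.150). Atf2 was at -0.26 (SE 0.474) and Atf4 at -0.02 (SE 0.0771). By line, Nfe2l1 had opposite signs: it stood at -0.52 in HMACT and at 1.39 in LMACT (SE 0.448, unadjusted p = 0.00587, limma adjusted p = 1). Its interaction was -1.91 (SE 0.619, unadjusted p = 0.00598, limma adjusted p = 0.884). In the interaction, Nfe2l2 (1.02, unadjusted p = 0.0445) and Ddit3 (-0.51, unadjusted p = 0.0411) also had an unadjusted p under 0.05, both with an adjusted p of 0.884 in limma. In LMACT 2.00% of all probe sets were higher after methamphetamine at an unadjusted p under 0.05. For the interaction that share was not counted, and 0% passed the adjusted test.

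Of 15 upstream factors and kinases on the array, 11 were above the floor on at least 1 array, 7 positive and 4 negative, with a median of 0.01. The coactivator gene Crebbp had 0.33 (SE 0.219, unadjusted p = 0.144) and the kinase gene Mapk10 -0.13 (SE 0.115, unadjusted p = 0.273). The kinase gene Mapk14, chosen like Nfe2l2 and Ddit3 after its values were seen, had 0.54 in LMACT (SE 0.233, unadjusted p = 0.0331, limma adjusted p = 1) and an interaction of -0.74 (unadjusted p = 0.0336, limma adjusted p = 0.884). The LMACT share of all probe sets given above applies here too, and that for the interaction was not counted. Of 16 genes known as AP-1 targets, 8 were above the floor on at least 1 array, 4 positive and 4 negative, with a median of 0.00492. Among them Mmp9 had a median of 2.24 in each group, under the floor. The enkephalin gene Penk was at 0.06 (SE 0.0953), the dynorphin gene Pdyn at 0.02 (SE 0.283) and the glutamate receptor gene Gria2 at -0.53 (SE 0.595); Hmox1, at 0.01, held one recurring value above the floor, 3.18, on every array of 3 of the 4 groups, and averaged 3.20 in LMACT after methamphetamine.

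All 15 other immediate early genes on the array were above the floor on at least 1 array, 11 positive and 4 negative, with a median of 0.16. Ier3 had group medians of 2.27 to 2.28, under the floor. The antiproliferative gene Btg2 rose by 0.88 (SE 0.0930, 1.84-fold, limma adjusted p = 1.28e-04), and it was 1 of the 2 probe sets called in that comparison. The factor gene Klf4 had 0.79 (SE 0.165, adjusted p = 0.203) and the factor gene Egr2 0.56 (SE 0.122, adjusted p = 0.324). Dusp1, a phosphatase of MAP kinases, had 0.80 (SE 0.208), Ccn1 0.42 (SE 0.138) and Nr4a1 0.32 (SE 0.141), each with an adjusted p of 1 in limma. Egr1 was at 0.15 (SE 0.148). These 6 besides Egr1 had an unadjusted p under 0.05, where 0.700% of all probe sets were higher at that p.

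**Figure D4:**
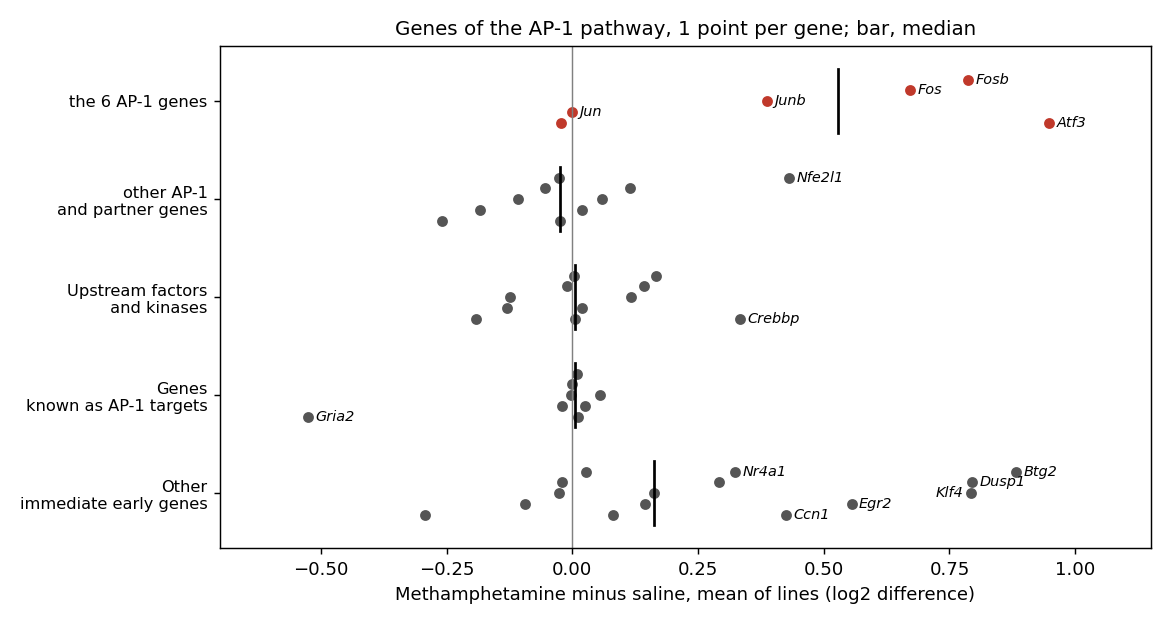
Methamphetamine minus saline averaged over the lines (horizontal axis, log2 difference) for the 6 AP-1 genes and 4 lists of related genes; each point is 1 gene above the floor on at least 1 array and the bar is the median of the list. The median is 0.53 for the 6 AP-1 genes and 0.16 for the other immediate early genes. The medians of the partner, upstream and target lists lie between -0.03 and 0.01. Atf3, Fosb and Fos lie between 0.67 and 0.95, a range that also holds the immediate early genes Btg2 (0.88), Klf4 (0.79) and Dusp1.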

How the data were processed

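The authors deposited 1 log2 value per probe set and array; that scale was inferred from the values. R 2.7.1 appears in the submitters' processing notes, and how they normalized and summarised probes is not given in the sources used here. Signal over the floor of 2.3, not read depth, and the number of arrays limit precision. Of 12488 probe sets, 66 controls were left out; 10833 were listed with 1 gene, 396 with several and 1193 were not listed. Symbols were updated through RefSeq (GRCm38.p6), matching 10817. limma 3.58.1 (lmFit, eBayes; R 4.3.3) was fitted to 12422 probe sets with 4 group means, and p-values, two-sided, were Benjamini-Hochberg adjusted over all of them. Groups, doses, ages and lots came from the labels. All 253 array pairs differed. Nothing says how mice were shared between pools, so the p-values reflect only how these samples vary, which may be technical. For each gene the probe set with the highest mean is described first. The 3 genes most alike to each member, the 2 genes of smallest p in each list and up to 6 more by role were named. The members and lists were chosen with earlier results of these data known. Code was tested on simulated data. Alternatives covered normalization, filters, probe set choice, array weights, age, lot, replicate number and single arrays.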

Additional observations from a re-analysis of the deposited data

Results flagged for a closer look

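In 8 of 29 groups of 5 or 6 arrays, the highest or lowest array lay far from the others for its range. For independent, roughly normal values without ties, chance does this in about 1 in 20 groups. That rate does not hold here, since the groups share arrays. The second Junb, the dimmer Atf3 and the Fosl2 probe sets also repeat 1 value, on 10, 10 and 20 arrays. HMACT saline replicate 3 was the low array for Fos (7.53, next 9.05) and Fosb (9.37, next 11.39), and the high array for the second Junb probe set (8.40, next 4.75) and the dimmer Atf3 probe set (3.82, next 3.17). HMACT methamphetamine replicate 3 was low for Fos (9.64, next 9.95) and high for the second Junb probe set (7.41, next 5.21). LMACT methamphetamine replicate 4 was high for that Junb probe set (6.11, next 5.09). These 7 lie on arrays that stood apart along the main axis. The remaining one was the Fosl2 value of 2.47 in HMACT saline replicate 1, just above the floor.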

How the results depend on the processing

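Of 364 values for 25 results under 15 alternatives, 348 kept their direction; of 575 values with 1 array left out, 556 did, and 0 passed the adjusted test. The count of AP-1 probe sets called, 0 in each of the 7 comparisons, became 1 (Fos) with array weights for the average of the lines (0.57, limma adjusted p = 0.00802) and for LMACT (0.53, adjusted p = 0.0201). It also became 1 without the 4 arrays that stood apart, which were picked from these data, for the average (0.60, limma adjusted p = 0.0385). The count was 0 with each array left out. Over these alternatives the Fos average had an adjusted p of 0.00802 to 1 and the Atf3 average 0.0791 to 1. Leaving out 1 array in turn gave 0.52 to 0.75 for the Fos average, 0.60 to 0.94 for Fosb, 0.29 to 0.45 for Junb and 0.81 to 1.02 for Atf3. The cause of the changes below was not tested. Jun changed sign in the average of the lines with quantile normalization (0.00814), mean age (4.13e-05), the replicate block (0.00684) and without the 4 arrays (7.30e-04). In HMACT it did in the largest lot (0.00475) and without the 4 arrays (0.0470), and in LMACT with array weights (-0.00671), in the largest lot (-0.0256) and without the 4 arrays (-0.0456). Leaving out 1 array gave Jun -0.0414 to 0.0414 in the average, -0.11 to 0.0605 in HMACT and -0.0456 to 0.10 in LMACT. In the largest lot, Fosb turned to -0.0122 in LMACT and -0.29 between the lines after saline. Among pools under 100 days, the interaction turned to -0.0552 for Fosb and -0.0719 for Atf3. The Atf3 interaction was -0.00366 averaged over its probe sets, the Junb interaction 0.0664 without the 4 arrays, and Fos between the lines after methamphetamine 0.00110 with mean age as a term. Averaging the probe sets of each gene, some at the floor, gave 0.34 for Fos and 0.35 for Atf3 in the average. All probe sets called for the average numbered 2, and 0 to 7 over the alternatives. In LMACT they numbered 0, and 0 to 67; both 7 and 67 came with array weights, the setting of the Fos calls above. For the lines over both injections they numbered 17, and 0 to 1014. With lot as a term, the lone array of its own lot was counted with a further lot. Scaling moved the median of all probe sets by at most 0.0853.

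Same-numbered methamphetamine and saline pools within a line shared a chip lot, except LMACT number 4. Their mean ages were close, and furthest apart in LMACT number 6 (114.75 and 127.5 days). They did not all deviate together (r -0.605 to 0.871 over 11 pairs, median 0.259, 8 over 0.1, and 7 of 22 arrays correlated best with their own number). The numbers were therefore not taken as pairs in the main fit, whose p-values take no account of this matching. With the replicate block the average was 0.66 for Fos, 0.73 for Fosb, 0.37 for Junb and 0.96 for Atf3 (adjusted p = 0.327 in limma); 0 AP-1 probe sets were called, and the probe sets called in all numbered 1 in place of 2.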
